A study of Mus musculus with 4 samples.

Results

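A set of 10 genes of bone mineralization and osteoblast identity were followed in cultured rib chondrocytes labelled as mutant for Senp6, the gene of a desumoylating enzyme, and in their controls. The genes are Alpl, Phospho1, Enpp1, Ank, Mgp, Ibsp, Spp1, Sp7, Dlx5 and Dlx6. They were taken by symbol from the deposited gene tables, and all 10 were found among the 18298 genes that any of the 4 samples lists. The chondrocytes, the cells that make cartilage, came from rib cages of C57BL/6 embryos at E18.5 and were labelled as passage 1. The Mut group held 2 samples of genotype Dermo1-Cre;Senp6f/f and the WT group held 2 samples of genotype Senp6f/f, so that both groups carried the floxed alleles and only the Mut group is labelled with Cre. Dermo1-Cre is expressed from the Twist2 locus in mesenchymal progenitors, upstream of both cartilage and bone cells. The cartilage was freed of neighbouring tissue by dissection and enzymes, so cells of bone, muscle and other tissue may remain.

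Mineral forms in cartilage and bone when phosphate is set free near collagen fibrils and pyrophosphate, which blocks crystal growth, is kept low. The alkaline phosphatase encoded by Alpl breaks down pyrophosphate, PHOSPHO1 releases phosphate inside matrix vesicles, and ENPP1 and ANK raise pyrophosphate outside the cell. Osteoblasts and hypertrophic chondrocytes use this machinery under transcription factors such as RUNX2, SP7 and the DLX proteins, and they lay down acidic proteins such as bone sialoprotein (Ibsp) and osteopontin (Spp1).

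Promoter sequence was available for 6 of the 10 genes in RefSeq on GRCm38.p6. The sequences shown are those upstream of the 2 Alpl starts and of the first Spp1 start, since Alpl and Spp1 had separated groups in opposite directions. Each is the run of 250 bases that ends just before the start, written 5′ to 3′ on the strand of the gene, and capitals mark every match to 1 of 5 motifs. Alpl start 1 lies at chr4:137796385-137796634 and start 2 at chr4:137766476-137766725, both on the minus strand, and the Spp1 sequence lies at chr5:104434861-104435110 on the plus strand.
Alpl start 1: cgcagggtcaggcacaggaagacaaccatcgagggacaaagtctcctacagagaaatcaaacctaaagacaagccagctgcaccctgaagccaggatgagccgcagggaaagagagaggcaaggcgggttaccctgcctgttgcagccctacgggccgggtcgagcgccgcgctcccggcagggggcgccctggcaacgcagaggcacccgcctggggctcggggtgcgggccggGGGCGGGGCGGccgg
Alpl start 2: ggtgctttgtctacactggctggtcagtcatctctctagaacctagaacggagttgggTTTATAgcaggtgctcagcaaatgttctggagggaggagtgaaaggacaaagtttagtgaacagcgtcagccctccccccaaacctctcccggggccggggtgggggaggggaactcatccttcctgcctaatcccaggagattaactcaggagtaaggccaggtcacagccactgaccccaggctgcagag
Spp1 start 1: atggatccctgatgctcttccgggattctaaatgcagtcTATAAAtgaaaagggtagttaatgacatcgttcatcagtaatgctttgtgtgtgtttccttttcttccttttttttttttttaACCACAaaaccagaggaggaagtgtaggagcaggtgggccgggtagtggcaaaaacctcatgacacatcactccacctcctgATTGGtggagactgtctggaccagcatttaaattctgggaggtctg
Each motif was searched on both strands over all 32851 RefSeq promoters of this length. The RUNX core, TGTGGT, was held by 14% of them. The homeodomain core, TAATTA, was held by 4.84%. The CCAAT box was held by 33.8%. The GC box, GGGCGG, was held by 32.7%. The TATA box, TATAAA, was held by 12.4%, and the median GC content of all windows was 52.4%. The first Alpl start carried 2 GC boxes that overlap by 1 base, between 15 and 5 bases upstream, in a window of 68.4% GC. The second Alpl start carried an inverted TATA box at 192 to 187 bases upstream and no other match, in a window of 56% GC. The first Spp1 start carried an inverted RUNX core at 128 to 123 bases and an inverted CCAAT box at 46 to 42 bases upstream. It also carried a TATA box at 211 to 206 bases upstream, in a window of 43.6% GC. The window of the second Spp1 start, at chr5:104435942-104436191, lies within the gene as GENCODE annotates it and is not shown. That window, of 35.6% GC, carried a homeodomain core at 122 to 117 bases upstream and no other match. The Ibsp window runs into the first exon that GENCODE annotates and is not shown. A match describes these letters and is not evidence of binding.

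Counted in units of 1000 reads, the depth was 21016 to 30995 a sample. Senp6 itself was read at 10.8 and 18.0 RPKM (reads scaled by the length of the gene and by the total of the sample) in WT and 12.02 and 8.07 RPKM in Mut. These groups overlapped (log2 fold change -0.56 ± 0.28, SE; edgeR adjusted p = 0.410), and a count over the whole gene does not check the deletion, since reads of the exons that remain are included. Xist, the RNA of the inactive X chromosome, had 2, 5, 3 and 11354 reads in WT replicates 1 and 2 and Mut replicates 1 and 2, so that the sexes were mixed within Mut. The part of sex in the values was not tested. The WT pair differed more than the Mut pair, with biological coefficients of variation from edgeR of 0.208 and 0.121. The labels do not say whether each sample came from its own embryo, so p-values measure the spread between these samples. Of the defining chondrocyte markers, Col2a1, the main cartilage collagen, stood at 609 and 659 RPKM in WT and 334 and 445 RPKM in Mut, and Acan and Sox9 had between 15.1 and 45.6 RPKM.

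Mut was compared with WT to ask whether the mineralizing enzymes, the inhibitors of mineral, the bone matrix proteins and the osteoblast factors differ between the Senp6 genotypes. The values of Alpl, Ibsp and Sp7 were lower in both Mut samples than in both WT samples, with fitted differences of 4.16-fold, 5.58-fold and 2.16-fold. Those of Spp1, Phospho1 and Dlx6 were higher in both Mut samples, the last of these on very few reads, and Enpp1, Ank, Mgp and Dlx5 overlapped between the groups. Enough reads for a test were found for 9 of the 10 genes, Dlx6 being the exception. None of the 9 passed an adjusted p of 0.05 in edgeR's quasi-likelihood test with Benjamini-Hochberg adjustment, nor did any of the 14123 genes tested (0%). At an unadjusted p of 0.05, 3 of the 9 were lower, against 6.28% of all genes tested, and 0 were higher, against 9.29%. Groups did not overlap in the lower direction for 3 of the 9, against 19.2% of all genes, and in the higher direction for 2 of the 9, against 28.3%. A log2 fold change of at least 1 was found for the same 3 lower genes, against 2.6% of all genes in that direction, and for 0 higher genes, against 5.74%. In DESeq2, 2 of the 9, Alpl and Sp7, were lower at an adjusted p under 0.05, against 1.86% of all genes, and 0 were higher, against 3.07%. In limma on log2(RPKM + 1) 0 of the 9 passed an adjusted p of 0.05, and so did 0 of the 14123 genes tested. In edgeR without WT replicate 2, 1 was lower, against 10.6%, and 3 were higher, against 9.42%. The fitted log2 fold change had a median of -0.18 over the 9 and of 0.01 over all genes tested. The plot of levels in each sample shows the range of the 10 genes.

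**Figure D1:**
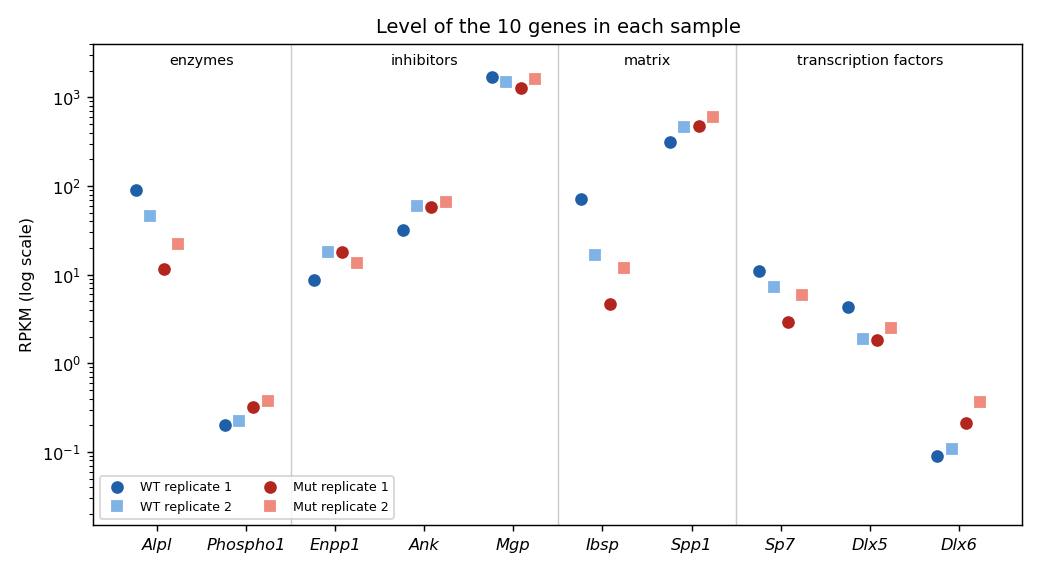
RPKM on a log scale (y axis) of the 10 genes (x axis, grouped by role) in each of the 4 samples, 1 point per sample. Alpl, Ibsp and Sp7 have both WT points above both Mut points, and Mgp lies between 1268 and 1689 RPKM while Phospho1 and Dlx6 lie below 1.

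Alpl, the tissue-nonspecific alkaline phosphatase (Gene ID 11647, chromosome 4 from 137741733 to 137796384 on GRCm38), stood at 90.1 and 45.7 RPKM in WT and at 11.6 and 22.4 RPKM in Mut. These rest on 4772 and 3009 reads in WT and 905 and 1593 in Mut. Both Mut values lay under both WT values, and the samples within each group were themselves 1.97-fold apart in WT and 1.93-fold in Mut. The fitted log2 fold change was -2.06 ± 0.41 (SE, n = 2 against 2), with an unadjusted p of 0.00188 in edgeR and an adjusted p of 0.0985. Alpl was the one gene of the 10 under an adjusted p of 0.1, which 0.496% of all genes reached in the lower and 1.52% in the higher direction. Among all genes tested, 0.432% had a more negative fitted change. By level, Alpl exceeded 95.6% and 90.2% of the genes listed in the WT samples, and 67.5% and 80.3% of those in the Mut samples. DESeq2 gave an adjusted p of 0.0413. With a sample left out the log2 fold change of Alpl in edgeR ran from -1.45 without WT replicate 1 (adjusted p = 0.558) to -2.58 without Mut replicate 2 (adjusted p = 0.112).

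Phospho1, the phosphatase of matrix vesicles (Gene ID 237928, chromosome 11 from 95824499 to 95832140 on GRCm38), was near the floor of the data at 0.199 and 0.220 RPKM in WT and 0.321 and 0.371 RPKM in Mut. Both Mut values lay above both WT values, resting on 8 and 11 reads in WT and 19 and 20 in Mut. Summed by group, the 39 Mut reads against 19 WT reads gave a ratio, scaled by depth, of 1.63, with an exact 95% interval of 0.922 to 2.99 that covers counting error only. Reads covered between 15.5% and 22.04% of the gene length, and in the GENCODE annotation most of the exon sequence, 1818 of 2029 bases, is shared with Zfp652 on the same strand. Abi3 shares 1708 of these bases from the opposite strand, and no strand-marking step is described for the libraries, so the assignment of these reads to Phospho1 is uncertain. In the fit, Phospho1 had a log2 fold change of 0.67 ± 0.46 (SE; edgeR adjusted p = 0.553).

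Among the inhibitors of mineral, no gene had separated groups. Enpp1, the enzyme that makes pyrophosphate from nucleotides (Gene ID 18605, chromosome 10 from 24637914 to 24712159), had 8.62 and 18.2 RPKM in WT and 18.1 and 13.5 RPKM in Mut. WT replicate 1 was the low sample and the other 3 lay within 13.5 to 18.2 RPKM. Ank, the transporter that exports ATP and pyrophosphate (Gene ID 11732, chromosome 15 from 27466677 to 27594909), showed the same low sample, with 32.0 and 59.9 RPKM in WT and 57.8 and 66.3 RPKM in Mut. The fitted log2 fold change was 0.20 ± 0.33 for Enpp1 (edgeR adjusted p = 0.822) and 0.40 ± 0.26 for Ank (edgeR adjusted p = 0.540). Without WT replicate 1 these became -0.22 for Enpp1 and 0.03 for Ank, and without WT replicate 2 they became 0.78 (edgeR adjusted p = 0.0497) and 0.86 (edgeR adjusted p = 0.00124). Without Mut replicate 1 the value of Enpp1 was -0.05. The sign of the Enpp1 difference therefore depended on which sample was used.

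Mgp, the matrix Gla protein that keeps cartilage from calcifying (Gene ID 17313, chromosome 6 from 136872435 to 136875823), was by far the most abundant of the 10. It stood at 1689 and 1472 RPKM in WT and 1268 and 1619 RPKM in Mut, which gave it ranks from 20 to 25 among the genes of a sample. The groups overlapped, and the fitted log2 fold change of -0.18 ± 0.16 (SE; edgeR adjusted p = 0.668) was the smallest in size among the 9 genes tested.

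The acidic matrix proteins differed from each other. Ibsp, bone sialoprotein (Gene ID 15891, chromosome 5 from 104299171 to 104311469, plus strand), was read at 70.7 and 16.7 RPKM in WT and at 4.62 and 11.8 RPKM in Mut. Both Mut values lay under both WT values, but WT replicate 1 was 4.23-fold above WT replicate 2, a wider gap than that between WT replicate 2 and Mut replicate 2. For Ibsp the fitted log2 fold change was -2.48 ± 0.83 (SE; unadjusted p = 0.0327 and adjusted p = 0.263 in edgeR). Leaving out WT replicate 1 brought it to -1.06, and leaving out Mut replicate 2 brought it to -3.28. Spp1, osteopontin (Gene ID 20750, chromosome 5 from 104435118 to 104441050, plus strand), lies on the same chromosome and strand and stood at 310 and 468 RPKM in WT and at 479 and 600 RPKM in Mut. The Mut samples were above both WT samples, with WT replicate 2 and Mut replicate 1 nearly level. In GENCODE, 309 exon bases of Spp1 are shared with Gm42793 on the same strand. The fitted log2 fold change of Spp1 was 0.43 ± 0.21 (SE; edgeR adjusted p = 0.383), and it was 0.70 without WT replicate 2 (edgeR adjusted p = 0.00950) and 0.18 without WT replicate 1 (edgeR adjusted p = 0.638). Spp1 was among the 178 most abundant genes in every sample, while Ibsp exceeded 94.2% of listed genes in WT replicate 1 and 49.6% in Mut replicate 1.

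Of the transcription factors, Sp7, or osterix, which osteoblast differentiation requires (Gene ID 170574, chromosome 15 from 102356606 to 102367182), had 10.98 and 7.29 RPKM in WT and 2.90 and 5.89 RPKM in Mut. The groups did not overlap, though WT replicate 2 and Mut replicate 2 were close. Its log2 fold change was fitted as -1.11 ± 0.36 (SE; unadjusted p = 0.0198 and adjusted p = 0.218 in edgeR). The adjusted p was 0.0403 in DESeq2. In edgeR the log2 fold change of Sp7 was -1.68 without Mut replicate 2, -0.76 without WT replicate 1 and -0.70 without Mut replicate 1. Dlx5, a homeodomain factor of early osteoblasts and chondrocytes (Gene ID 13395), had 4.36 and 1.90 RPKM in WT and 1.85 and 2.50 RPKM in Mut, with WT replicate 1 high and the groups overlapping. Its fitted log2 fold change was -0.57 ± 0.44 (SE; edgeR adjusted p = 0.598). Without WT replicate 1 it was 0.17, and without WT replicate 2 it was -1.10 (edgeR adjusted p = 0.0204).

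Dlx6, the neighbour and paralog of Dlx5 (Gene ID 13396), was read only 2 and 3 times in WT and 7 and 11 times in Mut, or 0.0889, 0.107, 0.211 and 0.364 RPKM. Both Mut values lay above both WT values. Summed by group, 18 Mut reads against 5 WT reads gave a ratio, scaled by depth, of 2.87 with an exact 95% interval of 1.03 to 9.87, which covers counting error and not the spread between samples. On GRCm38, Dlx5 spans 6877805 to 6882085 of chromosome 6 on the minus strand and Dlx6 spans 6863334 to 6868568 on the plus strand. Dlx6 shares 104 exon bases with Dlx6os2, an entry on the opposite strand, whose reads cannot be told apart from those of Dlx6 without strand.

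**Figure D2:**
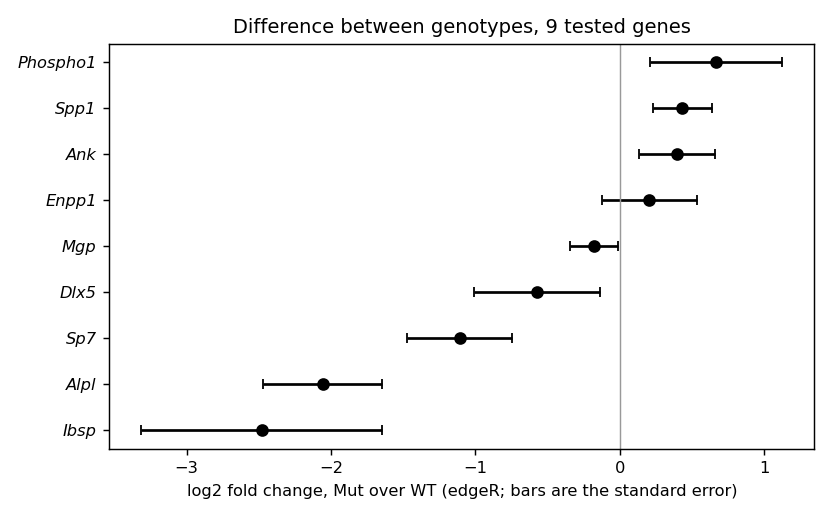
Fitted log2 fold change of Mut over WT (x axis, edgeR) for the 9 genes tested (y axis), with bars of 1 standard error and n = 2 samples a group. Ibsp at -2.48, Alpl at -2.06 and Sp7 at -1.11 lie furthest from 0, and none of the 9 passes an adjusted p of 0.05.

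Ratios of 2 genes within a sample do not depend on the scaling of libraries, and 4 were computed. Alpl stood to Enpp1, the enzyme that opposes it, as 10.4 and 2.51 in WT and as 0.639 and 1.66 in Mut. Against Ank, Alpl had ratios of 2.82 and 0.763 in WT and 0.200 and 0.337 in Mut. In both cases the 2 Mut samples lay under the 2 WT samples, and both use the same separated Alpl values. Ibsp to Spp1 gave 0.228 and 0.0357 in WT and 0.00965 and 0.0197 in Mut. Its lack of overlap was fixed in advance, since Ibsp was lower and Spp1 higher in both Mut samples. Dlx5 to Dlx6 gave 49.0 and 17.7 in WT and 8.77 and 6.87 in Mut, where the lower gene rests on 2 to 11 reads a sample. The mean log2 ratio was lower in Mut by -2.31 for Alpl to Enpp1, -2.49 for Alpl to Ank, -2.71 for Ibsp to Spp1 and -1.92 for Dlx5 to Dlx6. Each of the 4 had an exact two-sided permutation p of 0.33 (0.33 after Benjamini-Hochberg adjustment), which is the smallest that 2 against 2 samples allow. Removing WT replicate 1 reduced the difference to -1.28 for Alpl to Enpp1, -1.55 for Alpl to Ank, -1.37 for Ibsp to Spp1 and -1.19 for Dlx5 to Dlx6. For Dlx5 to Dlx6 it was also smaller with a pseudocount, at -1.35 with RPKM + 0.1 and -0.55 with RPKM + 1.

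**Figure D3:**
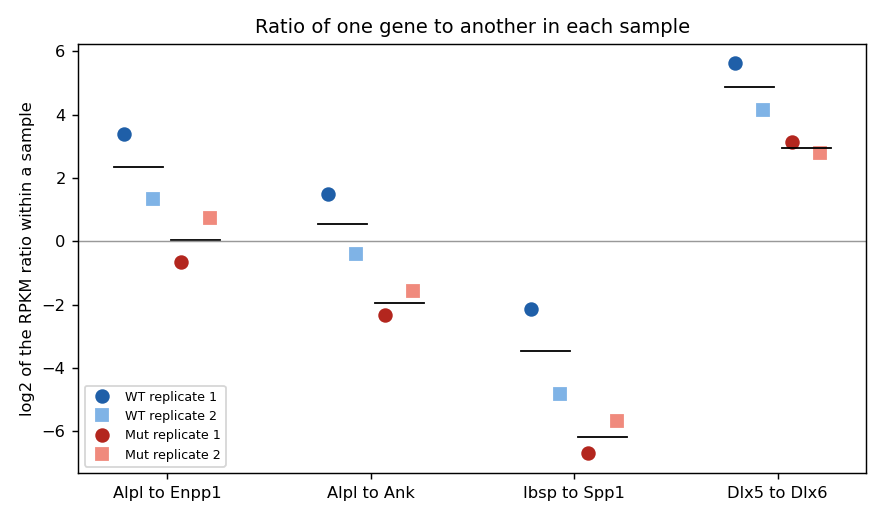
Log2 ratio of the RPKM of one gene to that of another within each sample (y axis) for 4 pairs (x axis), 1 point per sample, with lines at the group means. In each pair both WT points lie above both Mut points, and the WT replicates are further apart than the Mut replicates. For Ibsp to Spp1 the separation of the groups follows from that of each gene.

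Alpl, Ibsp and Sp7 had the same order of samples, with WT replicate 1 highest, then WT replicate 2, Mut replicate 2 and Mut replicate 1. That order was noticed after the values were seen, and 1022 of the 14123 genes tested (7.24%) had it. The order can occur only where both Mut values lie under both WT values, as in 2712 of the genes tested. Alpl, Ibsp and Sp7 were already known to be lower without overlap, so the 1022 genes are better set beside those 2712. Among the chondrocyte markers, all 14 of which were lower without overlap, the order was found in 7. The gene profiles nearest to Ibsp over the 4 samples, by Euclidean distance of centred log2 CPM among 11151 genes with a mean of at least 100 counts, were those of Cfd, the complement factor D of fat cells (distance 0.447), Cd36, a fatty acid receptor (0.470), and Penk, proenkephalin (0.613). For Phospho1, the gene with the highest fitted change, they were Soat2 (0.0402), Zfp809 (0.0462) and Sfrp4 (0.0471). The likeness rests on 4 samples and is a description.

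Genes that work alongside the 10 were drawn from 4 lists of 61 genes, of which 50 were tested. The 50 include Gla, which does not belong among them, as stated below. None of the 50 had an adjusted p under 0.05 in edgeR. DESeq2 called 2 lower and 3 higher, beside 1.86% and 3.07% of all genes. At an unadjusted p of 0.05 in edgeR, 8 of the 50 were lower, where the share of all genes was 6.28%, and 10 were higher, where it was 9.29%. Groups did not overlap for 16 lower and 13 higher genes, beside 19.2% and 28.3% of all genes. In the bone matrix list, 7 of 13 genes were tested, 6 of them with a negative and 1 with a positive log2 fold change, and the median was -0.40. Col1a1, the main collagen of bone, had 7253 and 4961 RPKM in WT and 4828 and 3311 RPKM in Mut, with separated groups and a log2 fold change of -0.63 (edgeR adjusted p = 0.332). It was -0.93 without WT replicate 2 (edgeR adjusted p = 0.0409) and -0.30 without WT replicate 1 (edgeR adjusted p = 0.654). Bglap, or osteocalcin, the marker of mature osteoblasts, was listed with 0 and 1 reads in WT and 0 and 3 reads in Mut, and Mepe and Dspp had no read in any sample.

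The osteoblast regulators were balanced, with 11 of 21 tested genes negative, 10 positive and a median of -0.01. Runx2, the master factor of the osteoblast lineage, had 14.2 and 13.3 RPKM in WT and 12.3 and 12.1 RPKM in Mut, a log2 fold change of -0.22 (edgeR adjusted p = 0.489). Hey1, a repressor downstream of Notch, had 0.107 and 0.155 RPKM in WT and 0.801 and 1.09 RPKM in Mut, a log2 fold change of 2.76 ± 0.44 (edgeR adjusted p = 0.0833). The values of Hey1 rest on 5 and 9 reads in WT and 55 and 68 in Mut. It therefore passed the filter of 10 counts in 2 samples only through Mut, where it is high. Tnfrsf11b, the osteoprotegerin that restrains osteoclast formation, had 5.10 and 6.69 RPKM in WT and 13.6 and 14.3 RPKM in Mut. Its log2 fold change was 1.20 ± 0.16 (edgeR adjusted p = 0.0789). Msx2, a homeodomain factor, had 0.198 and 0.531 RPKM in WT and 0.895 and 1.05 RPKM in Mut, a log2 fold change of 1.34 ± 0.48 (edgeR adjusted p = 0.248). It was 2.18 without WT replicate 2 (edgeR adjusted p = 0.0144), 0.85 without WT replicate 1 (edgeR adjusted p = 0.365) and 0.54 on log2(RPKM + 1). On that last scale Hey1 stood at 0.78. All 3 of these had higher values in both Mut samples.

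For genes of phosphate and pyrophosphate handling, 16 of 18 were tested, 6 with negative and 10 with positive values, and the median log2 fold change was 0.06. At an unadjusted p of 0.05 in edgeR, 0 were lower and 3 were higher, beside 6.28% and 9.29% of all genes. The 3 were Nt5e, Slc20a2 and Gla, named after their values were seen. Gla, the gene of the lysosomal enzyme alpha-galactosidase A, does not handle phosphate or pyrophosphate. Its values remain in the counts and the median of this list. Hypertrophic cartilage genes had 6 of 8 tested, a median of -0.33, and 3 lower and 1 higher without overlap, beside 19.2% and 28.3% of all genes. Panx3, a channel protein of prehypertrophic cells and osteoblasts, had 0.756 and 0.486 RPKM in WT and 0.179 and 0.155 RPKM in Mut, a log2 fold change of -1.92 ± 0.46 (edgeR adjusted p = 0.126). It was -2.26 without WT replicate 2 (edgeR adjusted p = 0.00895), -1.55 without WT replicate 1 (edgeR adjusted p = 0.142) and -0.47 on log2(RPKM + 1). Col10a1, the collagen of hypertrophic chondrocytes, had 1.47 and 2.21 RPKM in WT and 1.76 and 4.24 RPKM in Mut, which overlapped, with a log2 fold change of 0.65 (edgeR adjusted p = 0.527) that was -0.086 without Mut replicate 2. Ihh was listed at 0 to 3 reads.

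**Figure D4:**
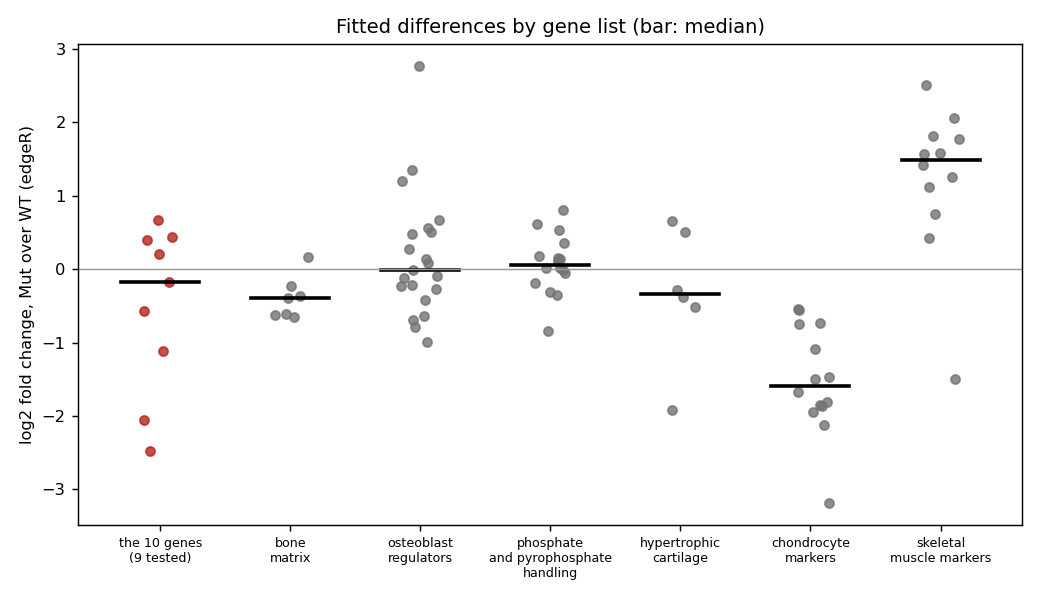
Fitted log2 fold change of Mut over WT (y axis, edgeR) for each tested gene of the 10 and of 6 other lists (x axis), with a bar at the median of each list. The chondrocyte markers all lie below 0 with a median of -1.59, and the medians of the 10 genes and of the 4 bone and cartilage lists lie between -0.40 and 0.06.

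Markers of cell types also differed in value between the groups, with 0 at an adjusted p under 0.05 in edgeR. The counts of markers without overlap that follow stand beside 19.2% of all genes in the lower and 28.3% in the higher direction. All 14 chondrocyte markers with reads, of 16 symbols listed (Lect1 and Cnmd name 1 gene), were lower in Mut without overlap. Their median log2 fold change was -1.59, with 13 at an unadjusted p of 0.05 in edgeR. Their summed level was 1040 to 1063 RPKM in WT and 520 to 656 RPKM in Mut. Skeletal muscle markers, 12 of 12 tested, were higher in Mut without overlap for 9, and they summed to 33.3 to 98.7 RPKM in WT and 167 to 185 RPKM in Mut. Smooth muscle markers were higher without overlap for 5 of 5 and summed to 1302 to 1520 RPKM in WT and 1902 to 2015 RPKM in Mut. Des is in both muscle lists and is counted in each. Osteoblast markers outside the 10 genes, 6 of 10 tested, were lower without overlap for 3 and higher for 1, and tendon and fibroblast markers, 6 of 6 tested, were lower for 2 and higher for 1. Osteoclast markers, 4 of 8 tested, were lower for 1 (Ctsk) and higher for 1 (Oscar). Oscar had only 5 and 7 reads in WT and 17 and 20 in Mut, so it passed the count filter only through Mut. The osteoclast markers summed to 65.2 to 87.9 RPKM in WT and 41.0 to 45.1 RPKM in Mut. Without Ctsk, a protease that held most of this sum, it was 4.25 to 10.7 RPKM in WT and 6.22 to 6.87 RPKM in Mut, which overlap. Macrophage markers, with 5 of 8 symbols tested (Emr1 and Adgre1 name 1 gene), were lower for 3 (Csf1r, Lyz2 and Emr1) and higher for 1 (Cd14). The macrophage markers summed to 17.6 to 18.9 RPKM in WT and 9.88 to 14.8 RPKM in Mut. Without Lyz2, the lysozyme gene, the sums overlapped at 7.81 to 9.79 RPKM in WT and 7.35 to 10.00 RPKM in Mut. The 6 osteoclast and macrophage genes given here were named after their values were seen. Endothelial and erythroid markers summed to at most 1.57 and 0.364 RPKM in any sample. In RNA from a whole culture, fewer cells of a type and less RNA per cell cannot be told apart, and the part of the cell mixture in the values of Alpl, Ibsp and Sp7 was not tested.

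**Figure D5:**
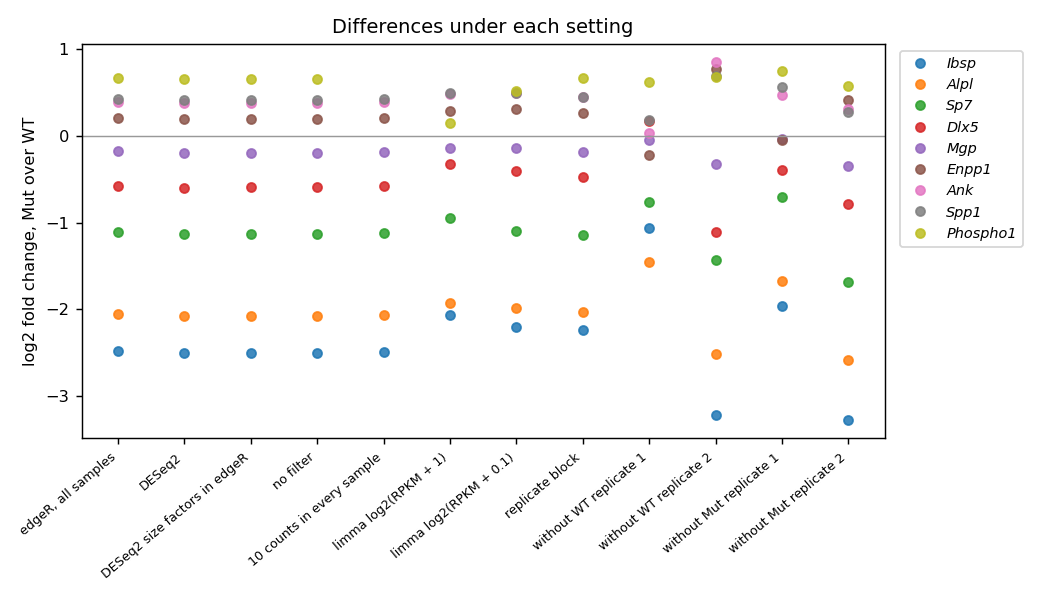
Log2 fold change of Mut over WT (y axis) for the 9 genes tested, under the edgeR test of all samples and each of 11 other settings (x axis). Alpl, Ibsp and Sp7 stay below 0 and Spp1, Ank and Phospho1 above it in each setting where they were tested, while Dlx5 and Enpp1 cross 0 without WT replicate 1, and Enpp1 also without Mut replicate 1.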

How the data were processed

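RNA of 4 cultures was enriched with oligo(dT), primed with random hexamers and sequenced by a service. For every sample, the authors deposited a table of genes with raw read counts, RPKM values and the percent of a gene's length that reads cover. RPKM is the count scaled by gene length and by the reads counted on genes. The submitters' processing notes name SAMtools and the build mm9, while the aligner, the counter and the annotation are not given in the sources used here. Genes absent from a sample's table were given a count of 0. Positions came from GENCODE on GRCm38 and promoters from RefSeq on GRCm38.p6, matched by symbol. No coordinate on mm9 was used.

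From the counts, edgeR 4.0.16 in R 4.3.3 gave a two-sided quasi-likelihood test (TMM, robust) of the 14123 genes that reached 10 counts in 2 or more samples, and p-values were adjusted over all of these (Benjamini-Hochberg). The SE was derived from the F statistic. Genes with few reads, such as Dlx6 and Phospho1, are measured with wide counting error. Alternatives were DESeq2 1.42.0, its size factors in edgeR, no filter, 10 counts in every sample, limma 3.58.1 on log2 of RPKM plus 1 or 0.1, a block for the replicate number, and fits that lack 1 of the samples. The replicate pairs differed by more than sampling noise (chi-square over its degrees of freedom 51.6 for WT and 24.2 for Mut). The fits were tested on simulated data.

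The 10 genes and the lists were chosen with earlier results of these data known. Named from the lists were Runx2, Col1a1, Bglap and Col10a1, and, as none passed the threshold, genes with separated groups and an absolute log2 fold change of at least 1. Mepe, Dspp and Ihh were named after their values were seen.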

Additional observations from a re-analysis of the deposited data

How the results depend on the processing

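Of 98 values of the 9 tested genes under an alternative, 88 kept their direction and their side of the threshold, 7 passed it where they had not, and 3 changed sign. DESeq2 placed 2 of the 10 genes lower (Alpl and Sp7) and 0 higher, with 434 higher and 263 lower over all genes (3.07% and 1.86%), and 3 companion genes higher and 2 lower (Hey1, Tnfrsf11b and Nt5e, and Bmp4 and Zfp521, the last 3 named after their values were seen). Without a filter on counts, 225 genes were higher and 61 lower, among them 2 companion genes higher (Hey1 and Tnfrsf11b). With the replicate number as a block, 84 were higher and 33 lower, with 1 companion gene (Tnfrsf11b) higher and 0 of the 10 genes in either direction. The labels do not say whether samples with the same replicate number were paired. The gap from replicate 1 to 2 in WT and in Mut correlated at -0.0422 across genes. A single gap in each group cannot decide whether the samples were paired. With each sample left out in turn, 0 to 3 of the 10 were higher and 0 to 1 lower, 96 to 1331 of all genes were higher and 47 to 1492 lower, and 1 to 12 companion genes were higher and 0 to 12 lower. The most came without WT replicate 2, where Ank, Enpp1 and Spp1 were called higher and Dlx5 lower, at 9.42% and 10.6% of all genes. Without Mut replicate 2, the log2 fold change of Sp7 was -1.68. In these fits the lone sample is assumed to vary like the other group. With a sample left out, the log2 fold change of Dlx5 ran from -1.10 to 0.17 (0.17 without WT replicate 1) and that of Enpp1 from -0.22 to 0.78 (-0.22 without WT replicate 1, -0.05 without Mut replicate 1). That of Col10a1 ran from -0.086 (without Mut replicate 2) to 1.15. The cause was not tested. The median log2 fold change of -0.18 over the 9 tested genes was 0.00 with no filter, where Dlx6 entered as well. Phospho1 was not tested with 10 counts in every sample, and its difference of 0.67 was 0.15 on log2(RPKM + 1).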
